A study of Mus musculus with 11 samples.

Results

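The genes described here are 8 mouse genes of the promyelocyte, the early stage of the neutrophil lineage at which primary granules are made: *Mpo*, *Elane*, *Prtn3*, *Ctsg*, *Ms4a3*, *Gfi1*, *Cebpa* and *Myb*. They were chosen by name and matched through their Ensembl identifiers, 8 of the 52636 genes in the deposited tables. All 8 passed the filter on low counts. RNA was measured in 11 whole fetal livers, each from an untreated E15.5 embryo. There were 3 *Casp8-/- Tnfr1-/-* livers (labelled Casp8 TNFR1 dKO), 3 *Casp8-/- Mlkl-/-* (Casp8 MLKL dKO), 2 *Tnfr1-/-* (TNFR1KO) and 3 WT. The alleles are constitutive, on a C57BL/6N background, so every cell of the embryo carries them. *Casp8* encodes a protease that restrains necroptosis, *Tnfr1* (*Tnfrsf1a*) encodes TNF receptor 1, which can start it, and *Mlkl* encodes the protein that lyses the cell at its end. Only *Casp8-/- Tnfr1-/-* livers lack caspase-8 while MLKL is intact. The question taken to the data was whether the early neutrophil stage rises in them.

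Neutrophils develop from progenitors through the myeloblast and promyelocyte to the myelocyte and the mature cell, and each stage has its own set of granule genes. The transcription factors C/EBPα, MYB and GFI1 act early in this sequence. The primary (azurophil) granules of the promyelocyte hold myeloperoxidase and the serine proteases neutrophil elastase, proteinase 3 and cathepsin G, whose genes are switched off when the cell goes on to make lactoferrin and the other proteins of the later granules. At E15.5 the liver is the main site of blood formation in the mouse embryo, so its RNA comes from erythroid, myeloid and hepatic cells together. In RNA from a whole organ, fewer cells of a type and less RNA per cell cannot be told apart.

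The genes of the granule enzymes lie on 3 chromosomes (GRCm38). *Mpo* (ENSMUSG00000009350) is at chr11:87793581-87804413 on the plus strand. *Prtn3* (ENSMUSG00000057729) at chr10:79874476-79883174 and *Elane* (ENSMUSG00000020125) at chr10:79886247-79888215 are neighbours on the plus strand, with 3072 bases between them. *Ctsg* (ENSMUSG00000040314) is at chr14:56099881-56102574 on the minus strand. The sequences below are shown because these 4 genes encode the enzymes of the primary granule. Each is the stretch of the RefSeq promoter window (250 bases before to 50 after the RefSeq start, GRCm38.p6) that lies before the first annotated exon base in that window, given 5′ to 3′ on the strand of the gene, and capitals mark the letters AGGAAGT, the core of sites bound by ETS factors such as PU.1.
Mpo, chr11:87793534-87793580 (plus): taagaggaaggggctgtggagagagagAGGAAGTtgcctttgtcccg
Elane, chr10:79886062-79886246 (plus): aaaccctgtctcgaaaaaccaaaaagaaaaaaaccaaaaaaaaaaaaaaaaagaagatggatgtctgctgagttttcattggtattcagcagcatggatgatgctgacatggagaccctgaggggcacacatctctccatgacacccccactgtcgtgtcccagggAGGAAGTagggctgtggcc
Prtn3, chr10:79879417-79879613 (plus): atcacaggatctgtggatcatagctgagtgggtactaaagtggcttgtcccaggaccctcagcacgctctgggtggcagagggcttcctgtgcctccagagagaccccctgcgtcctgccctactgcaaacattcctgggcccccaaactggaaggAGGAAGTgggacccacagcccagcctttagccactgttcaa
Ctsg, chr14:56102575-56102824 (minus): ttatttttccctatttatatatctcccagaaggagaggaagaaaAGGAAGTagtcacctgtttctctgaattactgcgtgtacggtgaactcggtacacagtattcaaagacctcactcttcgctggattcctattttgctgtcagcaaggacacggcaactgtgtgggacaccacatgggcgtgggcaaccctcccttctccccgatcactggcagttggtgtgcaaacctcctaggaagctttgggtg
AGGAAGT, searched on both strands, was found in the windows of 4 of the 8 genes, the 4 shown, and in 9.35% of all 32851 RefSeq promoter windows. It was not found in the windows of *Ms4a3* and *Gfi1*, which were highest and lowest in the same livers as these 4. The MYB core AACNG was found in 7 of the 8 and in 80.3% of all windows. The C/EBP letters TTGCNNAA were found in 2 of the 8 (10.8% of all windows), the RUNX core TGTGGT in 1 (16.8%) and the GFI1 core AAATC in 2 (35.9%). A gene was counted once if any of its windows matched, whereas the shares are of windows. *Gfi1* had more than 1 window, of which 1 held TTGCNNAA. The *Prtn3* window lies within the annotated span of the gene, downstream of its first annotated base. These matches describe the letters in the windows and are not measured binding sites.

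Each liver gave between 23129212 and 35819339 counted reads, and between 2901 and 44515 of them fell on the 8 genes. By correlation, 1 library stood apart. *Casp8-/- Tnfr1-/-* replicate 3 correlated with the other 10 at 0.840 to 0.891 over log2 CPM of all tested genes (counts scaled to a common library size, which TMM adjusts for the make-up of each library), whereas the other 10 correlated with each other at 0.949 or more. Its TMM factor was 0.757, and 10 striated muscle genes, among them *Acta1* of skeletal actin at 534 CPM, summed to 1433 CPM in it, against 14.7 to 22.0 in the 8 livers of the other genotypes and 33.0 and 17.7 in the other *Casp8-/- Tnfr1-/-* livers. *Casp8* itself was at 13.1, 11.5 and 21.9 CPM in *Casp8-/- Tnfr1-/-* replicates 1, 2 and 3, at 7.82 to 10.2 in *Casp8-/- Mlkl-/-* livers and at 27.7 to 33.8 in the 5 livers with intact *Casp8*, so replicate 3 lay between the levels of the genotypes. *Mlkl* was at 0.729 to 1.22 CPM in *Casp8-/- Mlkl-/-* livers and at 13.2 to 24.6 in *Casp8-/- Tnfr1-/-* livers. *Tnfrsf1a* was at 49.8 and 50.5 CPM in *Tnfr1-/-* livers and at 47.1 to 53.4 in WT, and at 425 in replicate 3; a count over all exons of a gene does not test the loss of a part of it. Results for *Casp8-/- Tnfr1-/-* livers are therefore given with and without replicate 3. A further library, *Casp8-/- Mlkl-/-* replicate 1, had a TMM factor of 0.812. It differed from the other livers of its genotype by a chi-square of 394 and 275 per degree of freedom. For *Casp8-/- Tnfr1-/-* replicate 3 these values were 406 and 378, and for all other pairs within a genotype 6.03 to 13.97. *Casp8-/- Mlkl-/-* replicate 1 was kept in the fits without replicate 3, and a fit without both is given at the end. The labels do not say whether embryos shared a litter, and p-values measure the spread between these livers.

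**Figure D1:**
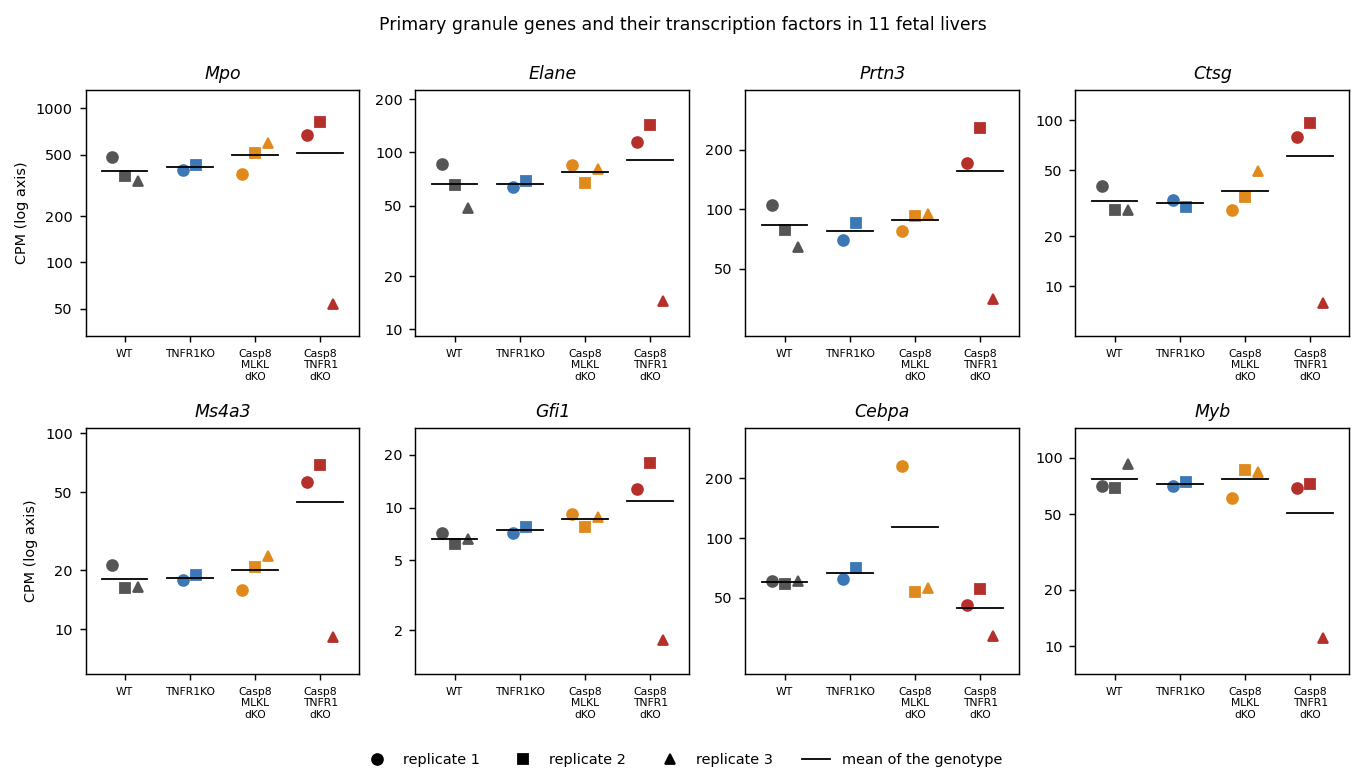
Level of the 8 genes in CPM (vertical log axis) in the 11 livers by genotype, with circles, squares and triangles for replicates 1, 2 and 3 and a line at the mean of each genotype. For *Mpo*, *Elane*, *Prtn3*, *Ctsg*, *Ms4a3* and *Gfi1*, *Casp8-/- Tnfr1-/-* replicates 1 and 2 sit above, and replicate 3 below, all 8 livers of the other genotypes.

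*Mpo*, *Elane*, *Prtn3*, *Ctsg* and *Ms4a3* were all higher in *Casp8-/- Tnfr1-/-* replicates 1 and 2 than in any liver of the other genotypes, and lower in replicate 3 than in any of them. *Mpo*, whose product makes hypochlorous acid in the phagosome, was at 483, 362 and 336 CPM in WT, 400 and 430 in *Tnfr1-/-*, and 376, 512 and 599 in *Casp8-/- Mlkl-/-* livers. In *Casp8-/- Tnfr1-/-* replicates 1, 2 and 3 it was at 672, 819 and 53.4 CPM. Replicates 1 and 2 were thus 1.71-fold and 2.08-fold above the WT mean of 394 ± 78.6 (SD, n = 3), while the WT mean was 7.38-fold above replicate 3.

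*Elane* encodes neutrophil elastase, the protease whose mutation causes cyclic neutropenia in people. It was at 85.9, 65.3 and 48.7 CPM in WT, 63.4 and 68.7 in *Tnfr1-/-*, and 84.6, 67.5 and 81.0 in *Casp8-/- Mlkl-/-* livers, against 115, 143 and 14.4 in *Casp8-/- Tnfr1-/-* livers. Its neighbour *Prtn3*, which encodes proteinase 3, was at 106, 79.0 and 64.8 CPM in WT, 70.0 and 85.1 in *Tnfr1-/-*, and 77.7, 92.2 and 94.5 in *Casp8-/- Mlkl-/-* livers. In *Casp8-/- Tnfr1-/-* livers *Prtn3* was at 173, 259 and 35.4 CPM. For both genes the range of the 3 *Casp8-/- Tnfr1-/-* livers enclosed all 8 others. *Prtn3* overlaps *Plppr3* on the opposite strand, which was at 7.86 to 24.5 CPM, and whether counting used strand is not given in the sources used here, so reads of the pair cannot be told apart.

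*Ctsg* encodes cathepsin G, a chymotrypsin-like protease. It was at 39.9, 28.9 and 28.9 CPM in WT, 32.9 and 30.2 in *Tnfr1-/-*, and 28.6, 34.4 and 49.4 in *Casp8-/- Mlkl-/-* livers, against 79.5, 95.5 and 7.97 in *Casp8-/- Tnfr1-/-* livers. *Ms4a3* (ENSMUSG00000024681, chr19:11629496-11640851, minus strand) encodes a membrane protein of granulocyte and monocyte progenitors. It showed the steepest rise of the 8 genes in replicates 1 and 2, at 56.8 and 68.7 CPM, which are 3.16-fold and 3.82-fold above the WT mean of 17.99 ± 2.87 (SD, n = 3). It was at 9.17 CPM in replicate 3, at 17.9 and 18.9 in *Tnfr1-/-* and at 16.0, 20.7 and 23.7 in *Casp8-/- Mlkl-/-* livers.

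Of the 3 transcription factor genes, only *Gfi1* followed the granule genes in both directions. *Gfi1* (ENSMUSG00000029275, chr5:107716657-107726036, minus strand) encodes a zinc finger repressor required for neutrophil development. It was at 7.14, 6.24 and 6.62 CPM in WT, 7.13 and 7.71 in *Tnfr1-/-*, and 9.24, 7.78 and 8.90 in *Casp8-/- Mlkl-/-* livers, against 12.8, 18.1 and 1.77 in *Casp8-/- Tnfr1-/-* livers. The level in replicate 3 rests on 31 reads.

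*Cebpa* (ENSMUSG00000034957, chr7:35119293-35121928, plus strand) encodes C/EBPα, which acts in myeloid progenitors and also in hepatocytes. It was at 61.1, 58.7 and 60.6 CPM in WT, 62.0 and 70.7 in *Tnfr1-/-*, 231, 53.6 and 56.2 in *Casp8-/- Mlkl-/-* and 45.9, 55.4 and 32.0 in *Casp8-/- Tnfr1-/-* livers. The high *Casp8-/- Mlkl-/-* liver, replicate 1, was also the liver in which 10 hepatocyte markers summed to 237748 CPM, with *Alb* of serum albumin at 124552 CPM, against 53827 to 111970 for the 10 markers in the other 10 livers. The part of hepatocyte RNA in this level was not tested.

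*Myb* (ENSMUSG00000019982, chr10:21124935-21160984, minus strand) encodes a factor of progenitors that keeps them dividing. It was at 70.5, 69.1 and 92.0 CPM in WT, 70.7 and 73.9 in *Tnfr1-/-*, and 60.7, 86.2 and 83.6 in *Casp8-/- Mlkl-/-* livers. *Casp8-/- Tnfr1-/-* replicates 1 and 2, at 68.7 and 72.4 CPM, lay within this range, and replicate 3, at 11.1 CPM, lay below it. Replicate 3 was thus the lowest of the 11 livers for each of the 8 genes.

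On the RPKM scale, which divides by the length of the gene, *Mpo* was the most abundant of the 8 in WT livers, at 114 ± 21.3 (SD, n = 3). *Prtn3* followed at 68.4 ± 16.4 and *Elane* at 57.1 ± 15.4, a pair whose levels overlapped within their spread. *Ctsg* was at 27.4 ± 4.89, *Cebpa* at 19.3 ± 0.0848, *Myb* at 17.3 ± 2.82 and *Ms4a3* at 14.96 ± 2.16, where *Cebpa* and *Myb*, and *Myb* and *Ms4a3*, did not differ beyond their spread. *Gfi1* was lowest, at 1.81 ± 0.0905.

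When all 11 livers were fitted, none of the 8 genes passed the test in any comparison (edgeR quasi-likelihood, Benjamini-Hochberg adjustment over 17243 genes, threshold 0.05). Set against WT livers, *Casp8-/- Tnfr1-/-* livers had 5.10% of all genes tested higher and 0.702% lower. They had 2.05% higher and 0.122% lower than in *Tnfr1-/-*, and 1.54% higher and 0.116% lower than in *Casp8-/- Mlkl-/-* livers. At an unadjusted p under 0.05, 1 member was higher against WT (*Ms4a3*), none passed against *Tnfr1-/-*, and 1 was lower against *Casp8-/- Mlkl-/-* (*Cebpa*), where 24.6, 16.3 and 15.3% of all genes tested were under 0.05. DESeq2 and limma-voom without weights also called 0 of the 8. Against WT, *Tnfr1-/-* and *Casp8-/- Mlkl-/-*, DESeq2 had 10.3, 6.42 and 4.55% of all genes tested higher and 3.42, 0.940 and 0.905% lower. By limma-voom 4.07, 2.13 and 1.68% were higher and 0.609, 0.145 and 0.0986% lower. The estimate for *Ms4a3* against WT was a log2 fold change of 1.32 ± 0.54 (SE, adjusted p = 0.172), and that for *Mpo* was 0.39 ± 0.69 (adjusted p = 0.730).

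Without replicate 3, 6 of the 8 genes were higher than in WT, where 7.28% of 17027 genes tested were higher and 2.55% lower. *Ms4a3* rose most, by 1.81 ± 0.18 on the log2 scale (SE, edgeR adjusted p = 0.000504). *Ctsg* rose by 1.43 ± 0.22 (adjusted p = 0.00458), *Prtn3* by 1.38 ± 0.22 (adjusted p = 0.00542) and *Gfi1* by 1.22 ± 0.17 (adjusted p = 0.00242). *Elane* rose by 0.96 ± 0.21 (adjusted p = 0.0219) and *Mpo* by 0.93 ± 0.21 (adjusted p = 0.0248). *Cebpa*, at -0.24 ± 0.55, and *Myb*, at -0.12 ± 0.17, did not pass.

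Against *Tnfr1-/-* livers, which share the loss of TNF receptor 1, 5 of the 8 genes were higher without replicate 3, where 4.46% of genes tested were higher and 0.728% lower. These were *Ms4a3* (1.77 ± 0.21), *Prtn3* (1.48 ± 0.25), *Ctsg* (1.47 ± 0.25), *Gfi1* (1.06 ± 0.19) and, at an adjusted p just under the threshold, *Elane* (0.96 ± 0.24), all as log2 fold changes with SE. *Mpo*, at 0.85 ± 0.24, had an adjusted p of 0.0789 by edgeR. Against *Casp8-/- Mlkl-/-* livers, which share the loss of caspase-8, 4 of the 8 were higher, where 2.83% of genes tested were higher and 0.335% lower. These were *Ms4a3* (1.64 ± 0.18), *Prtn3* (1.30 ± 0.22), *Ctsg* (1.23 ± 0.22) and *Gfi1* (0.84 ± 0.17), while *Elane* was at 0.73 ± 0.21 and *Mpo* at 0.59 ± 0.21. The 3 comparisons share the *Casp8-/- Tnfr1-/-* livers, so they are not independent of each other.

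**Figure D2:**
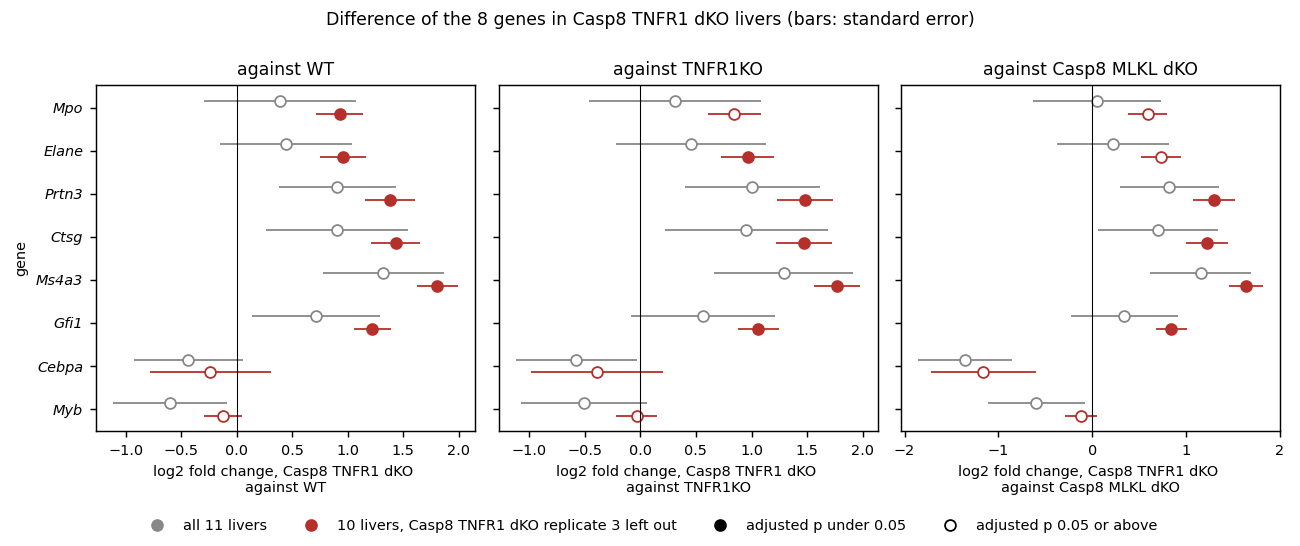
Log2 fold change of the 8 genes (horizontal axis, bars are the standard error) in *Casp8-/- Tnfr1-/-* livers against each other genotype, in grey with all 11 livers and in red with *Casp8-/- Tnfr1-/-* replicate 3 left out, filled where the adjusted p was under 0.05. No grey point is filled, and red points are filled for 6, 5 and 4 of the 8 genes against WT, *Tnfr1-/-* and *Casp8-/- Mlkl-/-* livers.

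Log2 CPM in *Casp8-/- Tnfr1-/-* livers was also set against the 8 other livers by exact two-sided permutation tests. With 3 livers, the unadjusted p ran from 0.0727 for *Myb* to 0.970 for *Gfi1*, where the smallest p that the possible splits allow is 0.00606. Without replicate 3, the exact permutation p was 0.0222, the smallest that 45 splits allow, for *Mpo*, *Elane*, *Prtn3*, *Ctsg*, *Ms4a3* and *Gfi1*, and 0.244 and 0.533 for *Cebpa* and *Myb*. For these 6 genes that value follows from replicates 1 and 2 lying above all 8 other livers, as they did for 10.6% of all genes tested, and adds nothing to it. Among the other genotypes no member passed with all 11 livers. Of the 8 genes, 0 differed between *Casp8-/- Mlkl-/-* and WT livers (edgeR, also 0 at an unadjusted p under 0.05 and by DESeq2 and limma-voom), where 0.00580% of genes tested were higher and 0% lower. By DESeq2 0.458% were higher and 0.0638% lower, and 5.63% had an unadjusted edgeR p under 0.05. Without replicate 3 also 0 members passed, where 0.141% of genes tested were higher and 0.0176% lower. In that fit 1 member (*Gfi1*, 0.38 ± 0.15, log2, SE) had an unadjusted edgeR p under 0.05, as did 16.8% of all genes tested. Between *Tnfr1-/-* and WT livers also 0 differed (0 at an unadjusted p under 0.05 and by both other tools), where 0% of genes tested passed in either direction. Here 1.08% of genes tested had an unadjusted edgeR p under 0.05.

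The rise in replicates 1 and 2 with a fall in replicate 3 was a pattern of few genes. Of all genes tested, 1.77% were above all 8 other livers in *Casp8-/- Tnfr1-/-* replicates 1 and 2 and below all 8 in replicate 3, a set that held 6 of the 8 genes described here. This pattern was counted after the values had been seen. Among 14 other primary granule and promyelocyte genes tested, 6 showed it, namely *Prss57*, *Nkg7*, *Cst7*, *Fcnb*, *Clec12a* and *Gusb*. Another 4, *Cd63*, *Plac8*, *Igsf6* and *Hdc*, were above all 8 other livers in all 3 replicates. The 14 genes summed to 2430, 2544 and 2493 CPM in replicates 1, 2 and 3, against 1326 to 2359 in the 8 other livers. Their mean log2 CPM in replicate 3, 5.24, lay within the range of the others (4.73 to 5.41). *Prss57*, which encodes a further serine protease of the primary granule, was at 6.41 to 8.25 CPM in the 8 other livers and at 14.4, 18.6 and 1.42 in *Casp8-/- Tnfr1-/-* livers. Without replicate 3 it was higher than in WT by 1.23 ± 0.16 (log2, SE, edgeR adjusted p = 0.00162).

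Among *Mpo*, *Prtn3*, *Ctsg* and *Ms4a3*, the proportions shifted in one direction in all 3 *Casp8-/- Tnfr1-/-* livers. These proportions do not depend on the scaling of the libraries. *Ms4a3* stood at 3.96 to 4.88% of the *Mpo* level in the 8 other livers and at 8.46, 8.39 and 17.2% in *Casp8-/- Tnfr1-/-* livers. *Ctsg* stood at 6.71 to 8.61% of *Mpo* in the others and at 11.8, 11.7 and 14.9% in *Casp8-/- Tnfr1-/-* livers. *Prtn3* stood at 15.8 to 21.9% and at 25.7, 31.7 and 66.4%. In replicate 3 *Prtn3* was at only 35.4 CPM, and its reads cannot be told apart from those of the overlapping *Plppr3* (7.86 to 24.5 CPM over the livers). *Ms4a3*, *Ctsg* and *Prtn3*, 3 of the 7 genes set against *Mpo*, were above the range of the 8 other livers in all 3 replicates. So were 1.55% of all genes tested, a count made after the values had been seen. Of the 8 genes *Mpo* fell most in replicate 3, so the ratio to it of any gene that fell less is raised there. In replicates 1 and 2 alone, the same 3 genes and 1.59% of all genes tested were above the range. Replicate 3 therefore adds almost nothing to this count. *Elane*, at 17.1, 17.5 and 27.0% of *Mpo*, overlapped the others (13.2 to 22.5%), as did *Gfi1*. *Cebpa* and *Myb* were lower relative to *Mpo* in replicates 1 and 2 than in any other liver (6.83 and 6.76% for *Cebpa*, 10.2 and 8.84% for *Myb*), and in replicate 3 stood at 59.98 and 20.8%.

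Genes that process, pack or inhibit the granule proteases included 6 of 9 that were above all 8 other livers in all 3 *Casp8-/- Tnfr1-/-* livers, as were 7.43% of all genes tested. Of the 9, 7 were higher against WT with all 11 livers fitted, 4 against *Tnfr1-/-* and 3 against *Casp8-/- Mlkl-/-* livers. Of all genes tested, 5.10, 2.05 and 1.54% were higher in these comparisons. The list median log2 fold change against WT was 1.64, against 0.00 over all genes tested. *Serpinb1a*, the inhibitor of elastase, proteinase 3 and cathepsin G inside the cell, was at 18.4 to 36.1 CPM in the 8 other livers and at 82.8, 98.6 and 96.8 in *Casp8-/- Tnfr1-/-* livers, a log2 fold change against WT of 2.12 ± 0.21 (SE, edgeR adjusted p = 0.000641). *Srgn*, which encodes the serglycin proteoglycan that packs granule contents, rose by 1.64 ± 0.29 (adjusted p = 0.0116). *Ctsc*, whose product cathepsin C activates the granule proteases, rose by 1.34 ± 0.27 (adjusted p = 0.0197), with 239, 263 and 119 CPM in the 3 livers. The stefins *Stfa2* and *Stfa3*, inhibitors of cysteine proteases, had the largest log2 fold changes of the list (4.77 ± 1.05 and 3.40 ± 0.74, and 3.15 ± 0.75 and 2.52 ± 0.62 without replicate 3), and *Serpinb6a* and *Serpinb6b* the smallest (0.41 ± 0.28 and 0.28 ± 0.33). Reads of the near-identical stefin copies may be split between them.

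The 14 tested genes of the other primary granule and promyelocyte list held 4 that were higher against WT with all livers (median log2 fold change 0.82) and 8 without replicate 3 (median 0.96). Of all genes tested, 5.10 and 7.28% were higher in these fits. *Hdc* and *Plac8* had the largest log2 fold changes, 2.23 ± 0.55 and 1.92 ± 0.17 (1.05 ± 0.14 and 1.89 ± 0.17 without replicate 3, in which *Hdc* was at 115 CPM against 21.3 and 25.9 in replicates 1 and 2), and *Gusb* and *Gstm1* the smallest, 0.21 ± 0.24 and -0.40 ± 0.24. The fifteenth gene of this list, *Bpi*, was at or near 0 in every liver and was not tested.

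Among 13 other regulators of granulopoiesis, 3 were higher against WT with all livers and 4 without replicate 3 (medians 0.31 and 0.40), as were 5.10 and 7.28% of all genes tested. *Spi1*, which encodes PU.1, was at 12.6 to 32.0 CPM in the 8 other livers and at 39.9, 50.5 and 62.1 in *Casp8-/- Tnfr1-/-* livers (log2 fold change against WT 1.52 ± 0.26, SE, edgeR adjusted p = 0.00888). *Cebpe*, which encodes the C/EBP factor of the later granules, was at 4.73 to 12.2 CPM and at 15.4, 23.3 and 14.5 (1.72 ± 0.35, adjusted p = 0.0196). *Cebpd* rose by 2.52 ± 0.58 (adjusted p = 0.0346), and *Cebpb*, at 2.97 ± 0.78, had an adjusted p of 0.0544. Without replicate 3, *Cebpd* was higher by 1.53 ± 0.35 (adjusted p = 0.0264) and *Cebpb* by 1.19 ± 0.28 (adjusted p = 0.0269), so the estimate for *Cebpb* fell and passed the test. *Irf8*, a factor of the monocyte branch, was at 0.28 ± 0.20, and *Gfi1b* and *Per3* had the lowest values of the list, -0.53 ± 0.18 and -0.56 ± 0.23. *Spi1*, *Cebpe* and *Cebpb* were above all 8 other livers in all 3 *Casp8-/- Tnfr1-/-* livers, whereas *Myb*, *Cebpa* and *Gfi1* were lowest in replicate 3.

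**Figure D3:**
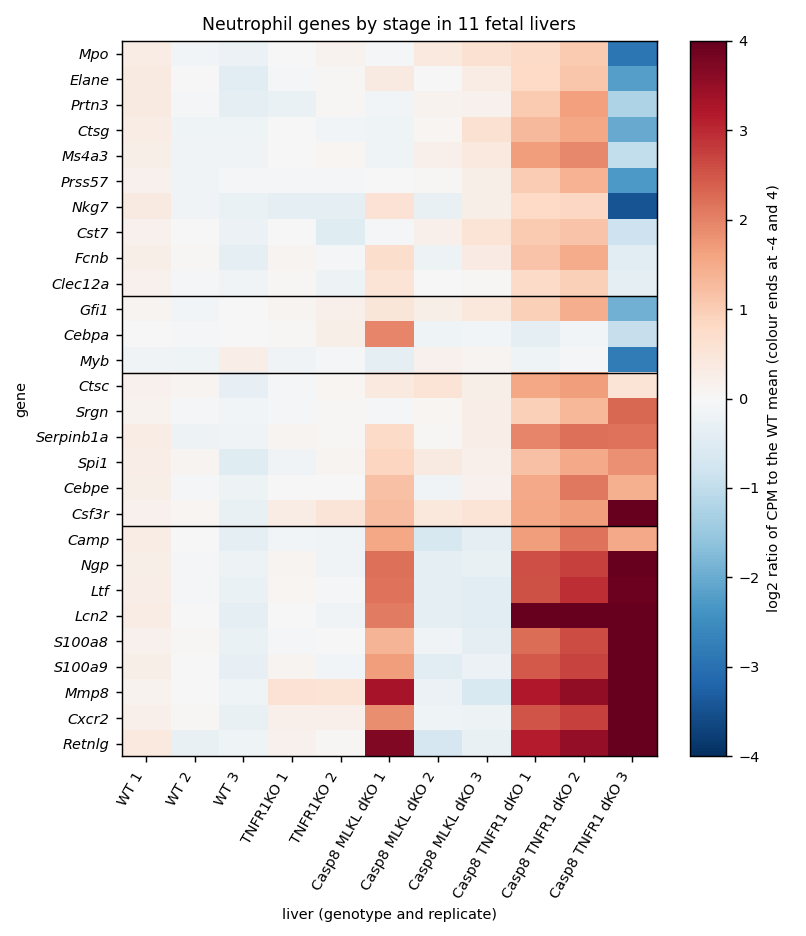
Log2 ratio of CPM to the WT mean (colour, ends at -4 and 4) for 28 neutrophil genes in the 11 livers, in 4 blocks from top to bottom: primary granule genes, the 3 transcription factors, processing and regulator genes, and genes of later granules and mature cells. *Casp8-/- Tnfr1-/-* replicate 3 is blue in the upper 2 blocks and mostly dark red in the lowest, while replicates 1 and 2 are red in all but *Cebpa* and *Myb*. Besides members, the top block shows *Prss57*, *Nkg7*, *Cst7*, *Fcnb* and *Clec12a*, which all fell in replicate 3, so its blue colour there follows from the choice of genes. *Cd63*, *Plac8*, *Igsf6* and *Hdc* of the same list are not shown. They were above all 8 livers of the other genotypes in all 3 *Casp8-/- Tnfr1-/-* livers.

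The 18 late neutrophil markers summed to 6024, 7248 and 20206 CPM in *Casp8-/- Tnfr1-/-* replicates 1, 2 and 3, against 794 to 3650 in the 8 other livers, so their sum was highest in the liver where the 8 genes described here were lowest. Of these markers, 14 were higher than in WT with all livers fitted (median log2 fold change 3.42), 4 than in *Tnfr1-/-* and 1 than in *Casp8-/- Mlkl-/-* livers, and without replicate 3 the counts were 13, 7 and 2 and the median against WT was 2.65. The shares of all genes tested were 5.10, 2.05 and 1.54% with all livers, and 7.28, 4.46 and 2.83% without replicate 3. In all 3 replicates 12 of the 18 were above all 8 other livers, as were 7.43% of all genes tested. *Ltf*, which encodes lactoferrin of the secondary granule, was at 83.2 to 502 CPM in the 8 other livers and at 644, 862 and 1683 in *Casp8-/- Tnfr1-/-* livers (log2 fold change against WT 3.27 ± 0.70, SE, edgeR adjusted p = 0.0260). *S100a9*, a subunit of calprotectin of mature neutrophils, was at 1575, 1879 and 6464 CPM, against 216 to 908 in the others (3.53 ± 0.70, adjusted p = 0.0182). Its partner *S100a8* rose by 3.31 ± 0.61 (adjusted p = 0.0130) and the secondary granule gene *Ngp* by 3.27 ± 0.71 (adjusted p = 0.0277). *Retnlg* and *Mmp8* had the largest values of the list, 5.64 ± 1.47 and 4.94 ± 1.19, and *Ly6g* and *Camp* the smallest, 1.88 ± 0.85 and 1.82 ± 0.51, of which *Mmp8* alone passed the test (adjusted p = 0.0413). Without replicate 3, *Mmp8* no longer passed (3.39 ± 0.96, adjusted p = 0.0583) and *Retnlg* was at 3.35 ± 1.08, while *S100a9* (2.60 ± 0.54), *S100a8* (2.44 ± 0.44), *Ngp* (2.67 ± 0.67) and *Ltf* (2.78 ± 0.68) still did. *Csf3r*, the receptor for G-CSF, was at 35.1, 38.0 and 197 CPM, against 9.82 to 28.1 in the others.

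The balance of early and late genes therefore differed among the *Casp8-/- Tnfr1-/-* livers more than among the rest. The mean log2 CPM of *Mpo*, *Elane*, *Prtn3*, *Ctsg* and *Ms4a3* minus that of the 18 late markers was 2.04 to 2.28 in WT, 1.88 and 2.08 in *Tnfr1-/-*, and 2.57 and 2.77 in *Casp8-/- Mlkl-/-* replicates 2 and 3. It was 0.61 and 0.65 in *Casp8-/- Tnfr1-/-* replicates 1 and 2, -4.07 in replicate 3 and -0.25 in *Casp8-/- Mlkl-/-* replicate 1. In replicates 1 and 2 both terms were higher than in WT livers, and the late term by more. In *Casp8-/- Mlkl-/-* replicate 1, only the late term was higher than in the other 2 livers of its genotype. The ratio of *Ltf* to *Mpo* was 0.139 to 0.297 in the 7 livers of the other genotypes apart from that replicate, 1.33 in it, 0.959 and 1.05 in *Casp8-/- Tnfr1-/-* replicates 1 and 2, and 31.5 in replicate 3.

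**Figure D4:**
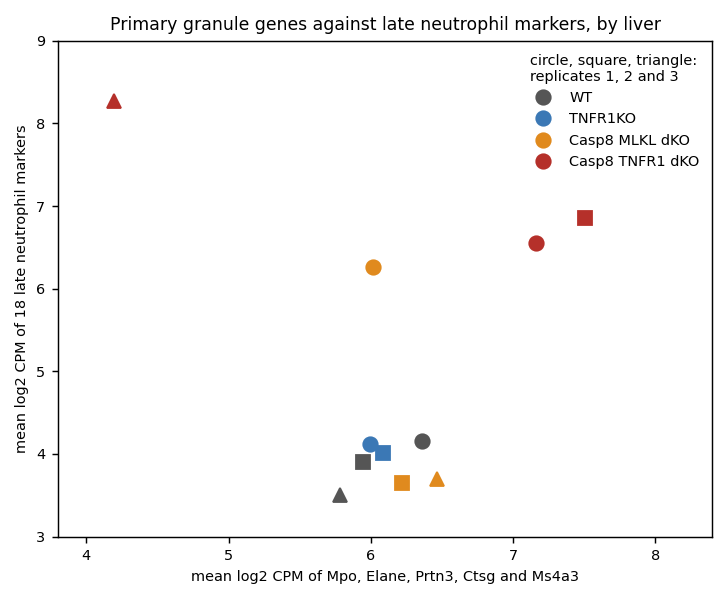
Mean log2 CPM of the 18 late neutrophil markers (vertical axis) against that of *Mpo*, *Elane*, *Prtn3*, *Ctsg* and *Ms4a3* (horizontal axis) in each of the 11 livers, coloured by genotype. *Casp8-/- Tnfr1-/-* replicates 1 and 2 sit at the right with means of 7.16 and 7.51 on the horizontal axis, replicate 3 sits alone at the upper left at 4.19, and *Casp8-/- Mlkl-/-* replicate 1 is raised in late markers alone.

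Markers of the other cells in the liver were read beside these results, and their part in them was not tested. The counts below against WT stand beside 5.10% of all genes tested higher and 0.702% lower with all livers. Without replicate 3 these shares were 7.28 and 2.55%. Among 9 growth factor receptors of myeloid progenitors, 4 were higher against WT with or without replicate 3 (*Csf3r*, *Csf2ra*, *Csf2rb* and *Csf2rb2* were above all 8 other livers in all 3). *Csf3r* and *Csf2rb2* had the largest log2 fold changes, 2.91 ± 0.62 and 2.53 ± 0.38 (1.62 ± 0.24 and 1.995 ± 0.25 without replicate 3), and *Flt3* the lowest, -0.91 ± 0.38. *Kit*, the stem cell factor receptor, was at 0.28 ± 0.19, and *Csf1r*, the macrophage receptor, at -0.18 ± 0.33. Of 10 stem and progenitor markers 0 were called against WT (edgeR, with *Procr* at 1.33 ± 0.42 and *Cd34* at 0.51 ± 0.24 highest and *Hlf* at -0.63 ± 0.45 and *Flt3* lowest), and 1 without replicate 3 (*Cd48*, 0.77 ± 0.18). Their sum was 190 to 219 CPM in *Casp8-/- Tnfr1-/-* livers and 173 to 212 in the others.

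Of 9 tested eosinophil, basophil and mast cell markers, granulocytes that share parts of the promyelocyte program, 0 were called (edgeR). *Cma1* and *Tpsb2* had the largest values, 3.48 ± 1.36 and 2.90 ± 1.30, and *Mcpt8* and *Prss34* the lowest, -0.49 ± 0.79 and -0.88 ± 0.87. Without replicate 3, *Cma1* did not pass the filter on low counts and *Tpsb2* was at 1.43 ± 1.36. The 9 markers summed to 31.4 to 49.0 CPM in the 8 other livers, 34.0 and 48.5 in *Casp8-/- Tnfr1-/-* replicates 1 and 2 and 16.0 in replicate 3, where *Mcpt8* was at 0.228 and *Prg2*, of eosinophils, at 3.76 CPM. Of 15 monocyte and macrophage markers, 3 were higher and 2 lower against WT, and 3 were higher and 0 lower without replicate 3, where *Clec4f* was at -3.80 ± 1.05. *Ly6c2* (1.60 ± 0.32) and *F13a1* (1.29 ± 0.31) had the largest and *Clec4f* (-4.23 ± 1.04) and *Vsig4* (-5.46 ± 1.79) the lowest log2 fold changes. Their sum was 576 to 670 CPM in *Casp8-/- Tnfr1-/-* livers and 613 to 1793 in the others.

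Of 9 tested erythroid markers 1, *Rhd* of a blood group antigen, was lower against WT with all livers (-0.73 ± 0.14, SE, edgeR adjusted p = 0.0169), and 1 was lower without replicate 3. *Alas2* (0.47 ± 0.44, and -0.43 ± 0.12 without replicate 3) was highest, and *Epor* (-1.02 ± 0.28) and *Klf1* (-1.11 ± 0.32) lowest. Their sum was 11070 to 19593 CPM in *Casp8-/- Tnfr1-/-* livers, with replicate 3 highest, and 11523 to 16632 in the others. Of 10 hepatocyte markers 0 were called (edgeR), with *Fgb* (2.05 ± 0.78) and *Ahsg* (0.91 ± 0.82) highest, *Ttr* (-0.30 ± 0.47) and *Apob* (-0.37 ± 0.33) lowest and *Alb* at 0.04 ± 0.61. Of 10 striated muscle markers 0 were called (edgeR), and their sum stood apart in replicate 3. Their log2 fold changes against WT ran from 8.11 ± 2.29 for *Ckm* and 7.23 ± 1.995 for *Tnnt3* to 2.66 ± 0.96 for *Mylpf* and 0.35 ± 0.44 for *Actn3* with all livers, and *Ckm* was at 1.65 ± 0.95 without replicate 3. Muscle RNA and the low levels of the primary granule genes occurred in the same library, so their parts in its profile cannot be told apart.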

How the data were processed

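RNA of 11 whole E15.5 livers was sequenced as single-end 50-base reads. The methods name a stranded mRNA kit, whereas the labels name another kit and sequencer. Per the methods, the authors aligned reads with GSNAP to GRCm38 (mm10) and used uniquely mapped reads; the counting tool, its annotation and its use of strand are not given in the sources used here. The counts, as deposited, are raw reads per gene. The RPKM values the authors deposited divide these by the exonic width of the gene, also deposited, and by a read total per liver; 76.5 to 83.4% of that total was counted. RPKM was used only to compare genes within WT livers.

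Names and positions are from GENCODE M21, and promoters from RefSeq (all 8 genes matched). A stretch of 50 bases shared with another gene's transcripts was 0.228% of *Mpo* and 0 of the other 7. *Mpo*, *Gfi1*, *Cebpa* and *Myb* each overlap a gene on the opposite strand at no more than 0.305 CPM. Pairs of livers of a genotype differed by a chi-square of at least 6.03 per degree of freedom, so each was a separate library.

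Genes were filtered by filterByExpr (minimum count 10), scaled by TMM and tested by edgeR 4.0.16 quasi-likelihood (R 4.3.3) over all 11 livers with genotype as the factor, Benjamini-Hochberg adjusted over all genes tested, threshold 0.05. Log2 CPM used a prior count of 2. Alternatives used DESeq2 1.42.0 and limma 3.58.1. Tested on simulated data over 17243 genes, the fit of *Casp8-/- Tnfr1-/-* against WT recovered 18 of 100 genes changed 2-fold and 76 of 100 changed 4-fold, with 4 false calls. The simulation took its spread from all 11 livers and held no aberrant library. Its rates therefore do not describe recovery with such a library or without replicate 3. Same-numbered livers of different genotypes correlated in their deviations at -0.297 to 0.275 over 15 pairs, and the main fit did not pair them. With 2 or 3 livers a genotype, such correlations cannot exclude a shared litter or batch.

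The 8 genes and all gene lists were chosen with earlier results of these data known, and a list is described by its counts and median beside all genes, with no set test. Named genes were the 8, the targeted genes, fixed markers, the genes with the 2 largest and 2 smallest log2 fold changes against WT in each list, and the 5 genes nearest in profile. Some genes that this rule names are not reported here. *Nkg7*, *Cst7*, *Fcnb*, *Clec12a*, *Cd63*, *Igsf6*, *Csf2ra*, *Csf2rb*, *Ccr2*, *Cd48*, *Rhd* and *Plppr3* were named after their values were seen. Reads carried no molecular identifiers, so a count of reads is not a count of molecules.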

Additional observations from a re-analysis of the deposited data

How the results depend on the processing

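Whether the 8 genes were called turned on 1 library. Leaving out each liver in turn, the number called higher in *Casp8-/- Tnfr1-/-* livers ran from 0 to 6 against WT, 0 to 5 against *Tnfr1-/-* and 0 to 4 against *Casp8-/- Mlkl-/-*, above 0 only without *Casp8-/- Tnfr1-/-* replicate 3. The exact permutation tests were repeated only with each *Casp8-/- Tnfr1-/-* liver left out. The number with an exact permutation p under 0.05 then ran from 0 to 6 (1 without replicate 2, *Myb*, which was lower). In the fits that kept both *Tnfr1-/-* livers, 1.57 to 7.61%, 1.27 to 4.46% and 0.415 to 3.03% of all genes tested were higher. With quality weights in limma-voom, which give an aberrant library less weight, 6, 6 and 5 were higher, where 17.0, 14.6 and 10.98% of all genes tested were. With replicate 3 and *Casp8-/- Mlkl-/-* replicate 1 both left out, 6, 6 and 5 were higher (17.8, 13.9 and 11.98% of all genes), *Cebpa* alone (1 gene) was lower against *Tnfr1-/-* (9.30% of all genes), and *Mpo* alone (1 gene) was higher in *Casp8-/- Mlkl-/-* than in WT livers (3.23% of all genes). Chosen after seeing the data, DESeq2 without replicate 3 called 6, 6 and 5 higher (8.85, 6.77 and 4.30% of all genes), and limma-voom without it 6, 5 and 4 (7.75, 5.35 and 3.92%). DESeq2, limma-voom, robust edgeR, DESeq2 size factors, library sizes without hemoglobin genes, other filters, fits of 2 genotypes and a replicate block each called 0. Among these, the share of all genes higher was lowest in fits of 2 genotypes and highest by DESeq2. It ran from 2.80 to 10.3% against WT, 0.316 to 6.42% against *Tnfr1-/-* and 0.0612 to 4.55% against *Casp8-/- Mlkl-/-*.

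Of 928 alternative log2 fold changes of the 8 genes, 800 kept their sign and side of the threshold, 83 passed it anew and 45 changed sign, none of which was called. Under limma-voom, *Mpo* was at -0.40, -0.49 and -0.72 and *Elane* at -0.0198, -0.0443 and -0.273 against WT, *Tnfr1-/-* and *Casp8-/- Mlkl-/-*, *Gfi1* at -0.0267 against *Casp8-/- Mlkl-/-*, and *Elane* at 0.0245 in *Tnfr1-/-* against WT. With a replicate block, *Mpo* and *Elane* were at -0.28 and -0.12 against *Casp8-/- Mlkl-/-*, and *Mpo*, *Ms4a3*, *Gfi1* and *Cebpa* at -0.20, -0.19, -0.12 and -0.0678 in *Tnfr1-/-* against WT. In *Casp8-/- Mlkl-/-* against WT, *Myb* was at 0.000988 with DESeq2 size factors and 0.000897 with DESeq2, *Cebpa* and *Myb* at -0.0587 and 0.17 with quality weights, and at -0.13 and 0.14 with both livers left out. The cause was not tested.

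Leaving out 1 liver, *Mpo* ran from -0.10 to 0.93, -0.18 to 0.85 and -0.43 to 0.59 and *Elane* from -0.0252 to 0.96, -0.0173 to 0.96 and -0.24 to 0.73 against WT, *Tnfr1-/-* and *Casp8-/- Mlkl-/-*, and *Gfi1* from -0.20 to 0.84 against *Casp8-/- Mlkl-/-*. In *Casp8-/- Mlkl-/-* against WT, *Cebpa* ran from -0.13 to 1.25, *Myb* from -0.10 to 0.14, *Prtn3* from -0.0740 to 0.29 and *Ctsg* from -0.0552 to 0.37. In *Tnfr1-/-* against WT, *Elane* ran from -0.19 to 0.22, *Prtn3* from -0.25 to 0.11, *Ctsg* from -0.12 to 0.13, *Ms4a3* from -0.0336 to 0.18, *Mpo* from -0.0192 to 0.25 and *Myb* from -0.17 to 0.0571.

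Over all genes, the number higher was 879 against WT (270 without WT replicate 3 to 3017 with both livers left out), 353 against *Tnfr1-/-* (29 without *Tnfr1-/-* replicate 1 to 2511 with quality weights) and 265 against *Casp8-/- Mlkl-/-* (10 with 2 genotypes fitted to 2032 with both livers left out). The biological coefficient of variation was 33.3% with all livers fitted, *Casp8-/- Tnfr1-/-* replicate 3 among them, and few simulated 2-fold changes were recovered at that spread. Recovery without that liver was not simulated.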

Other observations

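Over the 11 livers, the 5 genes whose centred log2 CPM lay nearest to the mean profile of *Mpo*, *Elane*, *Prtn3*, *Ctsg* and *Ms4a3*, of 17235 genes compared, were *Prss57*, *Cd180*, *Rbp3*, *Mgl2* and *Siglecf*, with root mean square differences of 0.145, 0.233, 0.259, 0.278 and 0.295 on the log2 scale, against a median of 0.852 over all genes tested. This is a description of 11 points in which *Casp8-/- Tnfr1-/-* replicate 3 carries most of the range. *Cd180*, which encodes a receptor of the Toll-like family, was at 5.598 to 10.3 CPM in the 8 livers of the other genotypes and at 19.4, 17.4 and 1.48 in *Casp8-/- Tnfr1-/-* livers. *Siglecf*, a lectin of eosinophils, was at 3.12 to 6.74 CPM and at 7.90, 10.6 and 1.31. *Rbp3* and *Mgl2* were below 5 CPM in every liver. By the same measure *Gfi1* stood at 0.191, whereas *Myb* stood at 0.581 and *Cebpa* at 0.957.

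Outside the neutrophil lists, the up, up and down pattern of *Casp8-/- Tnfr1-/-* replicates 1, 2 and 3 was also seen in *Ccr2*, a chemokine receptor of monocytes, at 15.1 to 29.6 CPM in the 8 other livers and at 29.9, 32.6 and 3.42, and in *Cd48*, a marker of committed progenitors, at 7.95 to 14.2 and at 14.5, 16.9 and 2.62. These genes were named after their values were seen.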
